A study of Homo sapiens with 24 samples.

Results

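Cholesterol that enters a cell with lipoproteins has to be cut free, moved out of the lysosome, carried between membranes, stored or exported, and 10 genes that carry out these steps were followed through every RNA-seq library of the series. The rule takes them by symbol and uses no measured value, although they were chosen with earlier results of these data known. They are NPC1, NPC2, ABCA1, ABCG1, SCARB1, SOAT1, LIPA, STARD3, STARD4 and NR1H3. All 10 were among the 48162 genes of the count table. Of these, 9 had enough counts to be tested, and ABCG1, with 0 to 9 counts in any library, did not.

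The cells were PPC1, an established prostate cancer cell line, studied in 4 conditions with 6 libraries each. Parental cells were grown without radiation (UT in the labels) or with LCL521, spelled LCL-521 in the labels, at 5 µM for 5 h (UT_LCL). Polyploid giant cancer cells (PGCC) were made from the same line by 8 Gy of radiation on day 2, harvested on day 5 and enriched by size on a 20 micron PluriSelect strainer, so that they are a filtered population and not a clone, and they were taken without drug (PGCC) or after the same LCL521 exposure (PGCC_LCL). LCL521 is a pro-drug that inhibits ASAH1, the lysosomal enzyme acid ceramidase. The experiment was carried out 6 independent times with all 4 conditions harvested in parallel. PGCC differ from parental cells in radiation, filtration and cell size at once, and these cannot be told apart in the comparison.

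In the lysosome, acid lipase releases cholesterol from its esters, NPC2 binds the free sterol in the lumen and hands it to NPC1 in the membrane, from where it leaves. START-domain proteins then carry sterol across the cytosol, the endoplasmic reticulum enzyme SOAT1 makes esters for lipid droplets, and ABC transporters and SR-B1 at the plasma membrane pass cholesterol to lipoproteins outside. The nuclear receptor LXRα senses oxysterols and turns on efflux genes, whereas SREBP2 turns on uptake and synthesis when sterol in the endoplasmic reticulum is low.

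The libraries held between 14835246 and 19906601 counted reads. In a principal component analysis replicates 4 and 5 stood apart from the other 4 replicates in every condition. The number of trafficking and efflux genes called in the comparisons between conditions is therefore given with and without them. Of 8 prostate epithelium markers 6 had at most 3 counts in every library of each condition, among them KLK3 and KLK2, and HOXB13 carried the summed level. That sum was 570 to 882 CPM (counts scaled to library size, after TMM scaling) in parental cells and 308 to 549 CPM in PGCC. All 5 epithelial markers exceeded 3 counts in at least 1 library of every condition. EPCAM was near that level, with 0 to 6 counts per parental library and 3 to 17 per PGCC library without LCL521. Of the 4 epithelial markers tested 2 were higher in PGCC and 1 lower, against 23.1% and 24.3% of all genes. The 9 markers of immune, endothelial, fibroblast and neuroendocrine cells summed to 10.8 to 17.1 CPM in parental cells and 14.3 to 18.8 CPM in PGCC, with CD3E and CD68 at 0 in both. COL1A1 made up the largest part of the sum, at a mean of 8.36 CPM in parental cells and 7.06 CPM in PGCC (edgeR adjusted p = 0.400). Of the 4 markers with enough counts to be tested 3 were higher in PGCC and 0 lower, with a median log2 fold change of 1.08. Over all genes tested the shares were 23.1% higher and 24.3% lower. With the replicate number as a block and without replicates 4 and 5, 3 markers were higher and 1 lower, against 32.7% and 31.6% of all genes. The leukocyte marker PTPRC went from 1.17 to 3.10 CPM (adjusted p = 0.0164), the fibroblast collagen COL3A1 from 1.93 to 3.91 CPM (adjusted p = 0.00772) and the neuroendocrine marker SYP from 0.719 to 1.58 CPM (adjusted p = 0.00890). The part of these markers in the differences between PGCC and parental cells was not tested.

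Upstream sequences from RefSeq (GRCh38.p14) were matched for 8 of the 10 genes, all but ABCG1 and SCARB1. Each window held the 250 bases before 1 annotated start per gene, the first listed, and any other start of the gene was not searched. For LIPA this window was at chr10:89414680-89414929 on the minus strand. They are shown for ABCA1, the gene with the largest change of the 9 in PGCC, and for NPC1 and STARD4, whose counts differed with LCL521 in the paired fits. Capitals mark a match to a DR4 element, the type of site known for LXR, searched on both strands as 2 AGGTCA half-sites in the same direction spaced by 4 bases with at most 2 mismatches in all. The windows run 5′ to 3′ on the strand of the gene, at chr9:104928156-104928405 on the minus strand for ABCA1, chr18:23586507-23586756 on the minus strand for NPC1 and chr5:111512536-111512785 on the minus strand for STARD4.
ABCA1: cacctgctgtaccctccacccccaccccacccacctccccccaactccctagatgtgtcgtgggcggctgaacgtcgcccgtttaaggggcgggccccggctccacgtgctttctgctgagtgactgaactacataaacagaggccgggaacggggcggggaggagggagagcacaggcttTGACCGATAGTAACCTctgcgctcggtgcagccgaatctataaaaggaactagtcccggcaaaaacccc
NPC1: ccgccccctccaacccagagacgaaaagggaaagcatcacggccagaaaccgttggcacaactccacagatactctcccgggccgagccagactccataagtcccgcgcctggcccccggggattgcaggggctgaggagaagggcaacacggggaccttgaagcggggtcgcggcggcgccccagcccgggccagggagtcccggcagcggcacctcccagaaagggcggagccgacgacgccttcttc
STARD4: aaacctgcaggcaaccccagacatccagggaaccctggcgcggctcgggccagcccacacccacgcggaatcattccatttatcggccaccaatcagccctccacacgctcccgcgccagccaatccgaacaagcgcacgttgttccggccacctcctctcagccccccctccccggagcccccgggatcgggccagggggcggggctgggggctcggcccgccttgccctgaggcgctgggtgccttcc
The match in ABCA1 began 69 bases before the start, on the strand opposite to the gene, and was the only match to this element in the 8 windows. Of 35116 windows of this length 714, or 2.03%, held such a match. The SRE-like letters TCACNCCAC were found on either strand in 0.883% of the windows and TCACGTG, an E-box of the kind that TFEB binds, in 3.31%, and neither was in the windows of the 8 genes. These searches describe letters in 250 bases before 1 start per gene and say nothing of other starts or of binding.

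The first comparison asked which of these genes differed in level between parental cells and PGCC. Without LCL521, 7 of the 9 tested genes were higher in PGCC and 0 were lower at an adjusted p under 0.05 (edgeR's quasi-likelihood test). Of the 13812 genes tested 23.1% rose and 24.3% fell. Over the 9 genes the median log2 fold change came to 0.73, against -0.03 for all genes tested. With the replicate number as a block 8 of the 9 were higher, against 27.9% of all genes. Without replicates 4 and 5, 8 were higher and 1, SCARB1, was lower, against 27.7% and 26.9% of all genes. In 5 of the 9 genes, NPC2, ABCA1, SOAT1, LIPA and NR1H3, every PGCC library lay above every parental library, which held for 14% of all genes. In these bulk libraries a rise per cell and a change in the mix of cells or in RNA content cannot be told apart.

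**Figure D1:**
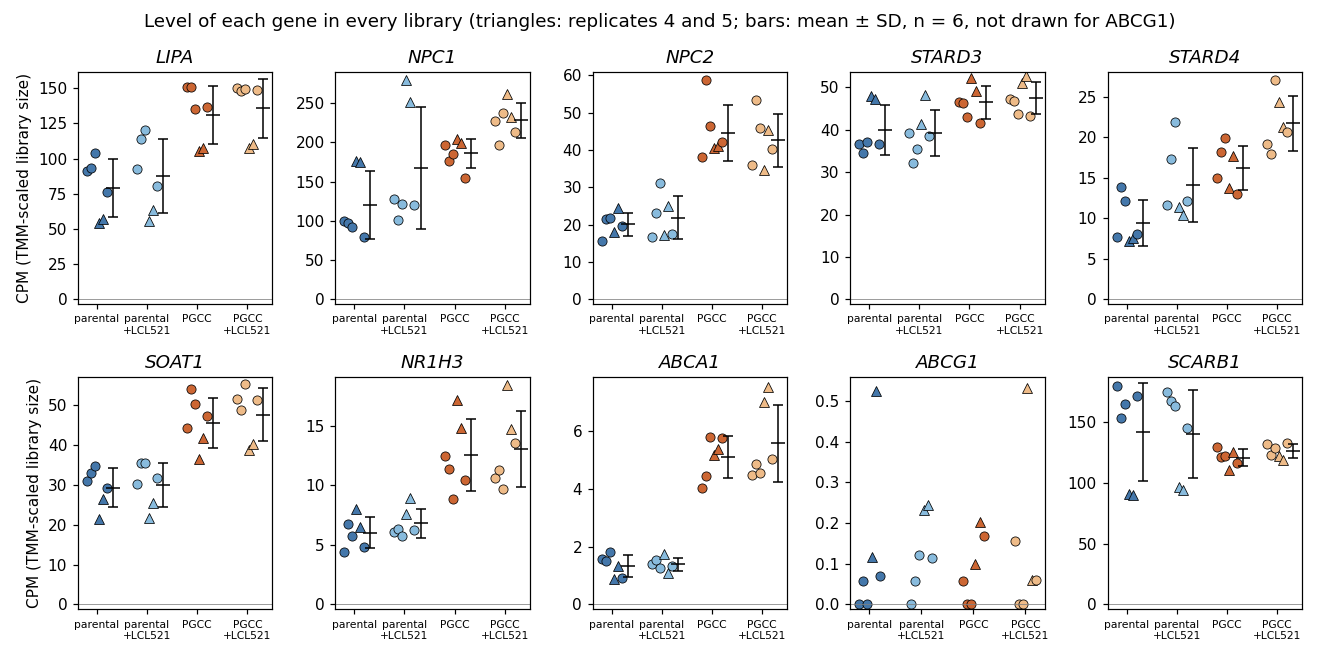
Level of each of the 10 genes in every library, in CPM with TMM-scaled library size, with 6 libraries per condition, triangles for replicates 4 and 5, and the mean with its SD beside them except for ABCG1. NPC2, ABCA1, SOAT1, LIPA and NR1H3 show no overlap between parental cells and PGCC, and in parental cells replicates 4 and 5 are the highest libraries for NPC1 and the lowest for SCARB1 and LIPA.

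LIPA encodes lysosomal acid lipase, which hydrolyses the cholesteryl esters and triglycerides of incoming lipoproteins. In hg19 it lies on chromosome 10 from 90973326 to 91174314, on the minus strand. Its level ran from 53.9 CPM over a median of 83.6 to 104 CPM in parental cells, and from 105 over 136 to 151 CPM in PGCC. The ranges did not touch, and the 2 lowest libraries of both conditions were replicates 4 and 5. LIPA was 1.66-fold higher in PGCC (95% interval 1.30 to 2.12, log2 fold change 0.73 ± 0.16 SE, edgeR adjusted p = 0.00218). The span of LIPA in the table crosses the interferon-induced genes IFIT1, IFIT2 and IFIT3, which lie on the opposite strand, and the strand setting of the counting is not given in the sources used here. Those 3 genes were higher in PGCC as well, by 1.36, 1.81 and 1.78 on the log2 scale. In GENCODE 29 (GRCh38) the exons of LIPA share 65 of 4910 bases with IFIT2 and 0 with IFIT1 and IFIT3, and the part of these genes in the rise of LIPA was not tested.

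NPC1, the lysosomal membrane transporter that is lost in most Niemann-Pick type C disease, lies on chromosome 18 from 21086307 to 21166862 (hg19, minus strand), where C18orf8 on the other strand shares 604 exon bases with it in GENCODE 29. C18orf8 did not pass the test (log2 fold change 0.09, adjusted p = 0.488). NPC1 had 79.1 to 177 CPM with a median of 98.5 in parental cells, and 154 to 204 CPM with a median of 191 in PGCC. The groups overlapped through parental replicates 4 and 5, at 177 and 175 CPM, while the other 4 parental libraries had at most 100 CPM. NPC1 was 1.55-fold higher in PGCC (1.17 to 2.06, log2 fold change 0.63 ± 0.19 SE, edgeR adjusted p = 0.0138). The log2 difference was 0.96 without replicates 4 and 5 (adjusted p = 2.14e-06). In every same-numbered pair PGCC was the higher, by 0.86 to 1.00 on the log2 scale in replicates 1, 2, 3 and 6 and by 0.19 and 0.21 in replicates 4 and 5. The adjusted p became 0.0569 when replicate 1 was left out and 0.0528 when replicate 3 was.

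NPC2 is the small soluble protein of the lysosomal lumen that carries cholesterol to NPC1. It lies on chromosome 14 from 74942895 to 74960880 (hg19, minus strand) and shares 103 exon bases in GENCODE 29 with ISCA2 on the other strand, whose log2 difference was -0.27 (adjusted p = 0.267). Parental libraries had 15.6 to 24.3 CPM with a median of 20.5, and PGCC libraries had 38.2 to 58.7 CPM with a median of 41.6. All 6 PGCC libraries were above the parental range. NPC2 was 2.22-fold higher in PGCC (1.82 to 2.71, log2 fold change 1.15 ± 0.13 SE, edgeR adjusted p = 9.97e-06). The difference in rise between NPC2 and NPC1 was not tested.

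STARD4, a soluble START-domain protein that shuttles sterol between the plasma membrane and the endoplasmic reticulum, had 7.20 to 13.8 CPM with a median of 7.88 in parental cells and 13.0 to 19.9 CPM with a median of 16.3 in PGCC. Of the parental libraries replicate 2, at 13.8 CPM, reached into the PGCC range and the other 5 did not. STARD4 was 1.73-fold higher in PGCC (1.32 to 2.27, log2 fold change 0.79 ± 0.18 SE, edgeR adjusted p = 0.00262). STARD3, which sits in the membrane of late endosomes and links them to the endoplasmic reticulum, had 34.4 to 47.9 CPM in parental cells and 41.6 to 52.2 CPM in PGCC, with medians of 36.9 and 46.5. Its ranges overlapped, again through replicates 4 and 5, which were the 2 highest libraries of both conditions. STARD3 did not pass the test without a block (log2 fold change 0.22 ± 0.10 SE, edgeR adjusted p = 0.0937) and passed with it (0.23, adjusted p = 0.0278). Leaving out replicates 4 and 5 gave 0.31 with an adjusted p of 0.00616. STARD4 lies on chromosome 5 from 110831731 to 110848288 on the minus strand and STARD3 on chromosome 17 from 37793318 to 37819737 on the plus strand (hg19).

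SOAT1 encodes the sterol O-acyltransferase that esterifies cholesterol for storage, and lies on chromosome 1 from 179262925 to 179327815 (hg19, plus strand). Its level was 21.4 to 34.8 CPM with a median of 30.0 in parental cells and 36.3 to 53.8 CPM with a median of 45.6 in PGCC. The groups did not overlap, although replicates 4 and 5 were the lowest libraries of both. SOAT1 was 1.56-fold higher in PGCC (1.29 to 1.89, log2 fold change 0.65 ± 0.13 SE, edgeR adjusted p = 9.54e-04). Of all 10 genes it had the smallest spread of differences between same-numbered libraries, with an SD of 0.0993 on the log2 scale over the 6 pairs.

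NR1H3, which encodes the oxysterol sensor LXRα and lies on chromosome 11 from 47269851 to 47290396 (hg19, plus strand), had 4.41 to 8.01 CPM with a median of 6.09 in parental cells and 8.85 to 17.1 CPM with a median of 11.9 in PGCC. No PGCC library fell into the parental range. NR1H3 was 2.08-fold higher in PGCC (1.59 to 2.73, log2 fold change 1.06 ± 0.18 SE, edgeR adjusted p = 3.16e-04). It overlaps ACP2 on the other strand, for which the log2 difference was 0.06 (adjusted p = 0.623).

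ABCA1, the transporter that passes cholesterol and phospholipid to lipid-poor apolipoprotein A-I, changed the most of the 9. Counts were low throughout, with 13 to 30 per parental library and 70 to 106 per PGCC library. In CPM the parental libraries ran from 0.87 over a median of 1.42 to 1.80 and the PGCC libraries from 4.03 over 5.26 to 5.80. The lowest PGCC library lay far above the highest parental library. ABCA1 was 3.81-fold higher in PGCC (2.82 to 5.14, log2 fold change 1.93 ± 0.20 SE, edgeR adjusted p = 4.08e-06). The gene lies on chromosome 9 from 107543283 to 107690518 (hg19, minus strand), and its upstream window carries the DR4 match printed above.

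The other exporter genes were ABCG1 and SCARB1. ABCG1, which moves cholesterol to mature HDL and is also a known LXR target, lies on chromosome 21 from 43619799 to 43717354 (hg19, plus strand). It had 0 to 9 counts per parental library and 0 to 4 per PGCC library, and most libraries were at or under 3 counts, the floor used here, which is 0.150 to 0.208 CPM. No difference was detectable at this depth and no fold is given. SCARB1 encodes SR-B1, the HDL receptor that exchanges cholesterol in both directions, and lies on chromosome 12 from 125261402 to 125367214 (hg19, minus strand). Parental libraries had 90.2 to 179 CPM with a median of 159, and PGCC libraries had 110 to 129 CPM with a median of 122. The parental libraries fell into a pair, replicates 4 and 5 at 91.0 and 90.2 CPM below every PGCC library, and 4 libraries at 154 to 179 CPM above every PGCC library. With all libraries SCARB1 did not pass the test (log2 fold change -0.22 ± 0.16 SE, 95% interval -0.57 to 0.12, edgeR adjusted p = 0.273). Without replicates 4 and 5 it was lower in PGCC, by -0.44 on the log2 scale (adjusted p = 2.41e-04). Within pairs PGCC was lower by 0.34 to 0.55 in replicates 1, 2, 3 and 6 and higher by 0.27 and 0.47 in replicates 4 and 5.

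**Figure D2:**
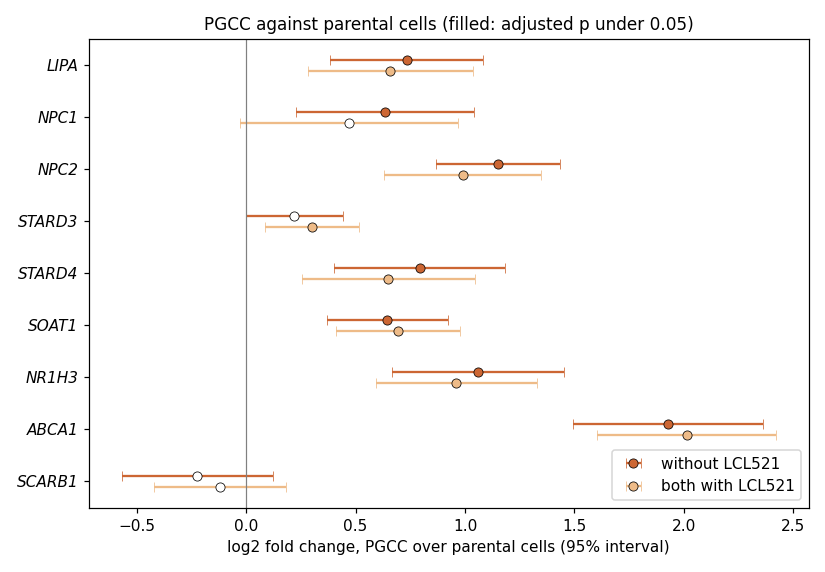
Log2 fold change of PGCC over parental cells for the 9 tested genes, with 95% intervals from edgeR's quasi-likelihood test without a block, in cells without LCL521 and in cells of both kinds with LCL521 (filled points passed an adjusted p of 0.05). ABCA1 lies furthest to the right in both comparisons at 1.93 and 2.01, and SCARB1 is the only gene with points left of 0.

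Single genes were also tested without a model across genes. A two-sided exact permutation test over all divisions of the 12 libraries into 6 and 6 gave p = 0.00216, the smallest possible value, for the 5 genes without overlap, 0.00649 for STARD4, 0.0173 for NPC1, 0.0498 for STARD3 and 0.355 for SCARB1. The smallest value follows from the lack of overlap alone. The exact sign-change test over the 6 same-numbered pairs gave p = 0.0312 for each of these genes except SCARB1 (0.3125). That value is the smallest this paired test can give.

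Levels between genes were compared per length, in RPKM computed from the listed gene lengths. In parental cells the order ran from LIPA at 28.5 RPKM over SCARB1 at 25.6, NPC1 at 23.3, NPC2 at 14.0, STARD3 at 11.6, SOAT1 at 4.28, NR1H3 at 2.21, STARD4 at 2.04 and ABCA1 at 0.127 to ABCG1 at 0.0368 RPKM. The ranges of neighbouring genes overlapped except between STARD3 and SOAT1, SOAT1 and NR1H3, and STARD4 and ABCA1. In PGCC the order was LIPA at 47.1, NPC1 at 36.0, NPC2 at 31.0, SCARB1 at 21.8, STARD3 at 13.5, SOAT1 at 6.66, NR1H3 at 4.59, STARD4 at 3.52, ABCA1 at 0.484 and ABCG1 at 0.0253 RPKM. SCARB1 thus stood after the 3 lysosomal genes in PGCC, with its range below that of NPC2. The parental order depended on replicates 4 and 5. In these NPC1 had 34.2 and 33.9 RPKM, LIPA 19.4 and 20.4, and SCARB1 16.5 and 16.3. In parental replicates 1, 2, 3 and 6 LIPA had 27.4 to 37.5 RPKM and SCARB1 27.8 to 32.4. NPC1 had 15.3 to 19.4 and NPC2 10.9 to 15.1 RPKM in those libraries, so that SCARB1 lay above NPC2 without overlap. ABCA1 remained a low gene in PGCC in spite of its rise.

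**Figure D3:**
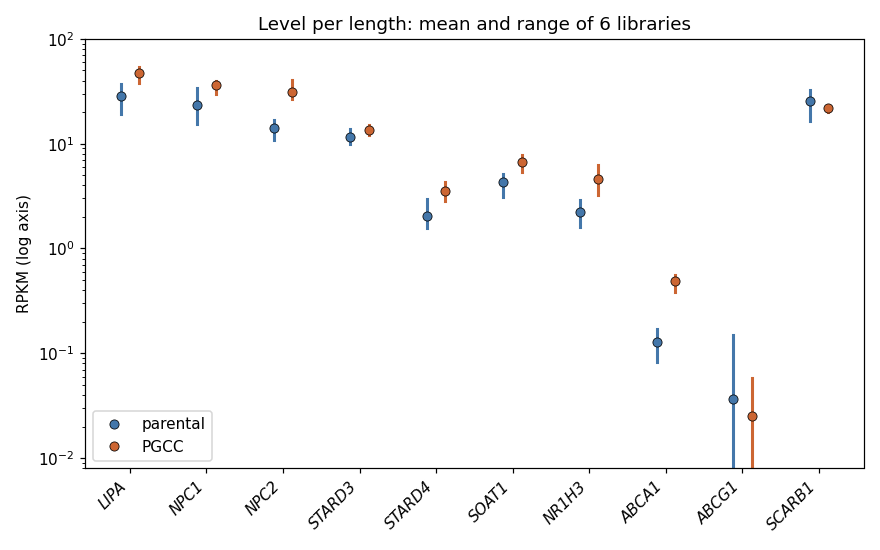
Mean and range of the level per length, in RPKM on a log axis, of the 10 genes over the 6 parental and the 6 PGCC libraries, where lines that reach the lower edge include libraries at 0. LIPA has the highest mean in both conditions at 28.5 and 47.1 RPKM, although NPC1 was above LIPA in replicates 4 and 5 of both. ABCA1 and ABCG1 lie below 1 RPKM in both.

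The same comparison was made between PGCC and parental cells that had both received LCL521, with libraries that share none with the first. Again 7 of the 9 genes were higher in PGCC and 0 fell, against 25% higher and 23.9% lower of 13818 genes. With the replicate block 8 were higher, against 29.5% of all genes. Without replicates 4 and 5, 7 were higher and SCARB1 was lower, against 27.9% and 24.6% of all genes. The median log2 fold change of the 9 genes was 0.66. NPC2, ABCA1, SOAT1 and NR1H3 did not overlap between the groups, which held for 14.4% of all genes.

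With LCL521 on both sides ABCA1 had 1.10 to 1.74 CPM in parental cells and 4.45 to 7.51 CPM in PGCC, a 4.04-fold difference (3.04 to 5.36, edgeR adjusted p = 1.31e-06). NPC2 differed by 0.99 ± 0.17 SE on the log2 scale (adjusted p = 2.32e-04) and NR1H3 by 0.96 ± 0.17 SE (adjusted p = 3.69e-04). Smaller rises were measured for SOAT1 with 0.69, LIPA with 0.66, STARD4 with 0.65 and STARD3 with 0.30. The STARD3 call (adjusted p = 0.0222) was lost when replicate 1, 2 or 3 was left out, with adjusted p-values of 0.0610, 0.0703 and 0.0567, and the STARD4 call (adjusted p = 0.00945) without replicates 4 and 5 (0.0720). NPC1 did not pass (0.47 ± 0.23 SE, adjusted p = 0.109), but passed with the replicate block (0.59, adjusted p = 0.0142) and when replicate 4 or 5 was left out (0.0226 and 0.0495). In the pairs of replicates 4 and 5 NPC1 was lower in PGCC, by 0.09 and 0.12, and in the other 4 pairs it was higher by 0.82 to 0.97. SCARB1 differed by -0.12 (adjusted p = 0.506), and by -0.30 without replicates 4 and 5 (adjusted p = 0.00461).

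The next question was whether 5 h of LCL521 changed these genes within each population. In parental cells edgeR without a block called 0 of 13277 genes, or 0%, and so 0 of the 9. At an unadjusted p under 0.05 STARD4 passed, against 0.535% of all genes, and DESeq2 and limma-voom called 0 of the 9. In PGCC the same test called 1 of 14151 genes, or 0.00707%, and that gene was INSIG1, an SREBP target that retains SREBP in the endoplasmic reticulum. None of the 9 passed there, NPC1 and STARD4 passed an unadjusted 0.05 against 1.54% of all genes, and DESeq2 and limma-voom called 0 of the 9. None of these fits used the pairing of libraries by experiment, and both unadjusted shares lay far below the 0.05 of the threshold.

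Because all 4 conditions were harvested in parallel in each of the 6 experiments, the fit with the replicate block compares libraries of the same experiment. With that block 2 of the 9 genes, NPC1 and STARD4, were higher with LCL521 in parental cells, against 0.52% of all genes, and the same 2 were higher in PGCC, against 1.08%. DESeq2 with the block called 2 of the 9 in either population.

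NPC1 had 79.1 to 177 CPM in parental cells without LCL521 and 101 to 280 CPM with it, so that the groups overlapped widely. Within same-numbered pairs it was higher with LCL521 in 6 of 6, by 0.07 to 0.66 on the log2 scale, with the smallest difference in replicate 2. The blocked fit gave a 1.36-fold rise (1.24 to 1.49, edgeR adjusted p = 0.00689). In PGCC it went from 154 to 204 CPM without LCL521 to 196 to 262 CPM with it. It was higher in 6 of 6 pairs, by 0.16 to 0.46, and the blocked fit gave a 1.23-fold rise (1.17 to 1.30, edgeR adjusted p = 4.20e-05). Over 6 pairs the two-sided exact sign-change test cannot go below p = 0.0312, which NPC1 reached in both populations. Without pairing, the exact permutation test gave p = 0.223 in parental cells and 0.00866 in PGCC.

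STARD4 had 7.20 to 13.8 CPM in parental cells without LCL521 and 10.4 to 21.9 CPM with it. It was higher in 6 of 6 pairs, by 0.32 to 0.85 on the log2 scale (exact p = 0.0312), and the blocked fit gave a 1.5-fold rise (1.33 to 1.70, edgeR adjusted p = 0.00713). In PGCC its levels were 13.0 to 19.9 CPM without and 17.9 to 27.0 CPM with LCL521. It was higher in 5 of 6 pairs, with differences from -0.02 in replicate 2 to 0.82 in replicate 4 (exact p = 0.0625), and the blocked fit gave a 1.34-fold rise (1.20 to 1.51, edgeR adjusted p = 0.00401). The unpaired exact permutation test gave p = 0.0325 for STARD4 in parental cells and 0.0130 in PGCC. STARD4-AS1, on the other strand, shares 124 exon bases with STARD4 in GENCODE 29.

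Without replicates 4 and 5 the blocked calls in parental cells were lost, at adjusted p = 0.125 for NPC1 and 0.0897 for STARD4 with log2 differences of 0.36 and 0.60. Those in PGCC remained, at 4.79e-04 and 0.0448.

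**Figure D4:**
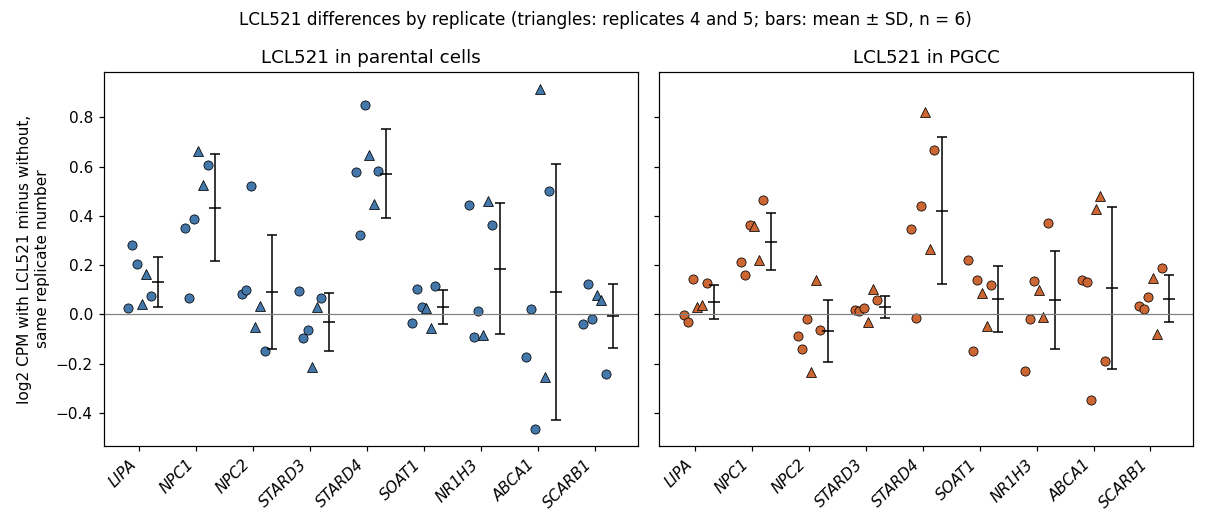
Difference in log2 CPM between the libraries with and without LCL521 of the same replicate number, for the 9 tested genes in parental cells and in PGCC, with triangles for replicates 4 and 5 and the mean with its SD over 6 pairs. All 6 points of NPC1 lie above 0 in both panels, as do the 6 points of STARD4 in parental cells and 5 of its 6 in PGCC.

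For the other 7 tested genes the blocked fit gave the limits of a difference with LCL521. In parental cells the interval ran from -0.10 to 0.09 on the log2 scale for SCARB1, from -0.07 to 0.15 for SOAT1, from -0.14 to 0.09 for STARD3 and from -0.06 to 0.27 for NPC2. LIPA was higher in 6 of 6 parental pairs, by 0.14 in the blocked fit (0.05 to 0.23), but did not pass (edgeR adjusted p = 0.170). The exact sign-change test over its 6 parental pairs gave p = 0.0312, the smallest value it can give. In PGCC the intervals were -0.01 to 0.14 for SCARB1, -0.04 to 0.17 for SOAT1, -0.05 to 0.12 for STARD3, -0.16 to 0.04 for NPC2 and -0.02 to 0.13 for LIPA. For NR1H3 they were -0.04 to 0.42 in parental cells and -0.10 to 0.22 in PGCC. The widest were those of ABCA1, with -0.37 to 0.53 in parental cells and -0.12 to 0.37 in PGCC.

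Whether LCL521 acted differently on PGCC and on parental cells was tested with an interaction term over all 24 libraries. No gene passed without the block (0 of 14555, 0%) or with it (0%), and 0 of the 9 passed at an unadjusted 0.05 in either fit. The difference in response, PGCC less parental cells, was -0.15 for NPC1 with the block (95% interval -0.58 to 0.27). For STARD4 it was -0.14 (-0.53 to 0.25). That block was the replicate number, shared by both populations. Without LCL521, NPC1 averaged 176 CPM in parental replicates 4 and 5 and 92.2 in the others, but 202 and 178 in PGCC. The SE of NPC1 was 0.203, against 0.060 and 0.038 in the blocked LCL521 fits of parental cells and PGCC. A block within each population was not tested for this difference, so these limits hold for the shared block only.

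The other genes of the pathway were read from lists grouped by role, against the 23.1% of all genes that were higher and the 24.3% that were lower in PGCC without a block, and 27.9% and 28.3% with the replicate block. Of 12 other lysosomal and late endosomal sterol genes 2 were higher in PGCC, 1 was lower and 9 did not pass, with a median log2 fold change of -0.02, and the block gave the same counts. Both shares lay below those over all genes. The 2 were SCARB2 (LIMP-2, 0.78 ± 0.08 SE, adjusted p = 3.03e-06) and LAMP2 (0.49 ± 0.09 SE), both lysosomal membrane proteins. TMEM55A, a phosphoinositide phosphatase of the same compartment, was lower by -0.40. Among 18 tested transfer proteins of the OSBP, START and related families 6 were higher and 4 lower, or 8 and 5 with the block, and the share that was lower lay near that over all genes. OSBP2 rose by 1.22 ± 0.16 SE (adjusted p = 2.95e-05), while OSBPL5 fell by 0.61 and STARD10, a phospholipid carrier, by 0.60.

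Of 4 tested genes of ester turnover and lipid droplets, 3 were higher and 0 lower in PGCC, or 4 and 0 with the block, against 23.1% and 24.3% of all genes, and a list of this size gives only a coarse share. They included NCEH1, a cholesteryl ester hydrolase (1.46 ± 0.22 SE, adjusted p = 1.02e-04), and the droplet coat protein PLIN3 (0.85 ± 0.10 SE). Among 7 other efflux and caveola genes 4 were higher and 0 lower, or 5 and 0 with the block, with ABCA5 at 1.00 ± 0.27 SE and CAV1, the caveola coat protein, at 0.56 ± 0.21 SE. Of 11 tested genes around LXR, 6 were lower in PGCC and 3 higher, or 7 and 3 with the block, against 24.3% lower and 23.1% higher of all genes, and the median of the list was -0.44. NR1H3 itself was higher. The dimer partner RXRA fell by 0.88 (adjusted p = 3.67e-05) and the corepressor NCOR1 by 0.74. NRIP1, a coregulator, rose by 0.82. Only 1 of 6 oxysterol enzymes, CYP46A1, could be tested, and it did not pass (0.28 ± 0.28 SE).

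Among 19 tested SREBP targets of sterol synthesis and uptake, 13 were higher in PGCC and 0 lower, with a median of 0.61, against 23.1% and 24.3% of all genes. With the block 14 were higher and 1 lower. Without replicates 4 and 5 the counts were 12 and 0, against 27.7% and 26.9% of all genes. ACAT2, which makes acetoacetyl-CoA at the start of the mevalonate route, rose by 1.21 ± 0.21 SE. IDI1, the isomerase of isopentenyl diphosphate further along it, rose by 1.16 ± 0.16 SE. Of 8 lipoprotein uptake genes 3 were higher and 3 lower, or 4 and 3 with the block, against the same shares of all genes, and their median was 0.05. The adaptors DAB2 and AP2A1 rose by 0.67 and 0.49, and the receptor LRP8 fell by 0.64.

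**Figure D5:**
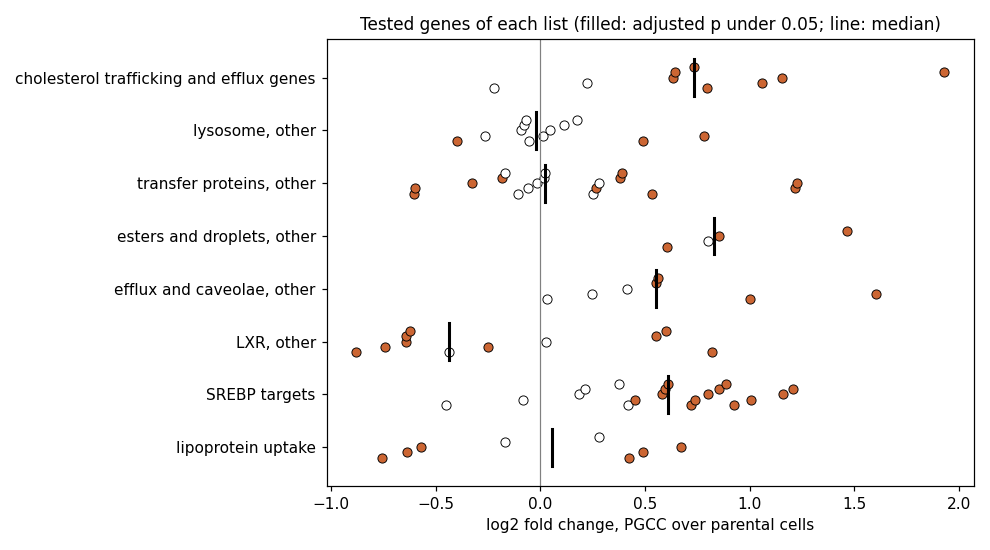
Log2 fold change of PGCC over parental cells for each tested gene of the cholesterol trafficking and efflux genes and of 7 related lists, with filled points at an adjusted p under 0.05 (edgeR, no block) and a line at the list's median. The median is 0.73 for the trafficking and efflux genes, 0.61 for the SREBP targets, -0.02 for the other lysosomal genes and -0.44 for the LXR list.

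With LCL521 and the replicate block, 11 of the 19 SREBP targets were higher in parental cells and 14 in PGCC, with 0 lower in either, against 0.52% and 1.08% of all genes higher. Without replicates 4 and 5 the blocked fit left 1 of the 19 in parental cells and 12 in PGCC, against 0.0151% and 0.508% of all genes. INSIG1 rose by 0.76 ± 0.08 SE in parental cells (edgeR adjusted p = 6.50e-04) and by 0.67 ± 0.06 SE in PGCC (adjusted p = 1.77e-06), and HMGCS1, which makes HMG-CoA, rose by 0.37 in parental cells. Without the block 0 and 1 of them passed. The other lists had few calls. Of the 11 tested genes around LXR 1 was higher in parental cells with the block, against 0.52% of all genes, and 0 in PGCC. CAV1 and NCEH1, both higher in PGCC than in parental cells, were lower with LCL521 in parental cells by -0.18 and -0.30 and in PGCC by -0.15 and -0.21. In PGCC TMEM97, a known binding partner of NPC1, rose by 0.25 and TMEM55B by 0.26. The oxysterol and lipoprotein uptake lists had 0 calls in either population, as did the transfer proteins. Without replicates 4 and 5 the lists other than the SREBP targets had 0 calls with the block in parental cells. In PGCC they had 2 lysosomal genes higher and 1 ester and droplet gene lower, against 0.508% and 0.402% of all genes.

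Finally, the genes whose levels moved most like each of the 9 within conditions were listed, by Pearson's r of deviations from the condition means over 24 libraries among 10657 genes. Since replicates 4 and 5 stand apart, r is also given over the 16 libraries without them. Values below give r over 24 and then over 16 libraries. NPC1 had SNTB1 with 0.97 and 0.77 and FBXO38 with 0.97 and 0.80. NPC2 had CLEC2B with 0.88 and 0.90 and MRPL33 with 0.88 and 0.89. LIPA had AMD1 with 0.98 and 0.93 and PHF5A with 0.97 and 0.88. Among these lysosomal genes the values of NPC2 moved least when replicates 4 and 5 were left out. STARD4 had ZNF714 with 0.81 and 0.79 and SVIP with 0.80 and 0.78. STARD3 had NLRP3 with 0.93 and 0.74 and HMG20B with 0.92 and 0.88. SOAT1 had EIF4EBP2 with 0.94 and 0.76 and GLIPR1 with 0.94 and 0.50. NR1H3 had FAM63A with 0.87 and 0.68 and MXI1 with 0.86 and 0.40. SCARB1 had IMPDH1 with 0.98 and 0.71 and SLBP with 0.98 and 0.46. GLIPR1, MXI1 and SLBP lost the most when replicates 4 and 5 were left out. ABCA1, the gene with the fewest counts of the 9, had PIAS1 with 0.66 and 0.52 and EXPH5 with 0.65 and 0.89. These values describe libraries that share experiments and depth.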

How the data were processed

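RNA from PPC1 cells was sequenced in 24 libraries, 6 for each of 4 conditions, grouped by their labels. The authors deposited read counts per gene, not normalized, together with gene length, coordinates and symbol. The submitters' processing notes name CASAVA, STAR, HTSeq and DESeq2 and the build hg19, and the supplementary methods describe random hexamer priming and paired-end reads. Strand setting and annotation release are not given in the sources used here, so counts of overlapping genes on opposite strands are uncertain. No per-sample column was left out.

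The genes and the related lists were chosen with earlier results of these data known. In R 4.3.3, genes were kept with filterByExpr (minimum count 10, minimum total 15), TMM factors scaled the library sizes, and each pair of conditions was compared by the quasi-likelihood test of edgeR 4.0.16 with no block. The study's own tests named no block, although its experiments were paired by parallel harvest. Benjamini-Hochberg adjustment ran over all genes tested, with a threshold of 0.05. SE is the log2 fold change divided by the square root of F, and intervals are at the 95% level. Log2 CPM carried a prior count of 2. Exact permutation tests were two-sided. Intervals and the floor of 3 counts cover counting error or the spread between these libraries only.

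Replicate numbers come from the labels, and the design text describes 6 independent experiments with parallel harvests. Same-numbered libraries deviated together: all 6 pairs correlated above 0.1 in each of the 4 comparisons between conditions, with median correlations of 0.343, 0.654, 0.532 and 0.273. The numbers were therefore taken to pair the libraries, and every fit was repeated with the replicate block.

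All 10 genes were named. From the other lists, up to 2 rises and 2 falls of largest size that passed, in genes averaging 2 log2 CPM or more, were named for PGCC, and for LCL521 up to 2 genes in each direction by p-value, from the blocked fit where the other called none. A few genes covered by it are not reported here. The procedure was tested on simulated data. Alternatives were DESeq2 1.42.0, limma-voom (limma 3.58.1), RLE and upper quartile factors, library totals, other filters, a joint fit, a prior count of 0.5, a length correction and left-out replicates. The block in DESeq2 and the block with a replicate left out were added after seeing the data.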

Additional observations from a re-analysis of the deposited data

Results flagged for a closer look

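In 2 of the 40 groups of 6 libraries tested, with chance giving about 1 in 20, the level of ABCG1 in 1 library lay far from the others. In parental cells without LCL521 replicate 5 had 0.524 CPM and the next library 0.116 CPM, a gap of 0.779 of the whole range. In PGCC with LCL521 replicate 4 had 0.532 CPM and the next library 0.157 CPM, a gap of 0.705 of the range. Both highest libraries held 9 counts, and no result of the report rests on them.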

How the results depend on the processing

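In PGCC without LCL521, 7 genes were higher with DESeq2, limma-voom, RLE and upper quartile factors, both other filters and the joint fit, 8 with library totals, and 6 to 7 with 1 replicate left out. With LCL521 on both sides the number was 8 with limma-voom, 6 with no filter beyond 1 count, 6 to 8 with 1 replicate left out, and 7 with the other tools, scalings and filters. In both PGCC comparisons 1 gene, SCARB1, was lower once replicates 4 and 5 were left out, in the fit with the replicate block as in that without, and 1 was lower without LCL521 in the blocked fit without replicate 5 (range 0 to 1). With LCL521, the number higher was 2 in both populations with the replicate block, with the block and a length correction, with the block in DESeq2 and with the block and any 1 replicate left out (2 to 2, and 0 without the block), and 2 in PGCC but 0 in parental cells with the block and without replicates 4 and 5. Among the 9 genes the block changed no other call than those given for STARD3, NPC1 and STARD4. In the related lists it added calls, as given beside their counts. Except where fewer libraries entered a fit, the cause of these changes was not tested.

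Signs turned for differences near 0 that were not called. For LCL521 in parental cells these were SCARB1 with limma-voom (0.0010) and library totals (0.0134, and 0.0234 in mean log2 CPM), STARD3 with library totals (0.000361 in mean log2 CPM), and, without replicates 4 and 5, ABCA1 (-0.0648, with the block -0.0544) and STARD3 (0.0166, with the block 0.0129). With 1 replicate left out, ABCA1 ranged from -0.104 to 0.196, STARD3 from -0.0520 to 0.0182 and SCARB1 from -0.0471 to 0.0343 there. With the block as well, signs turned for ABCA1 (-0.0977 without replicate 4, -0.00207 without replicate 6), STARD3 (0.0148 without replicate 4) and SCARB1 (0.00213 without replicate 1, 0.0404 without replicate 6). For LCL521 in PGCC ABCA1 was -0.0877 without replicates 4 and 5 (-0.0779 with the block). In the interaction ABCA1 was -0.0075 without replicates 4 and 5, and with 1 replicate left out ABCA1 ranged from -0.080 to 0.204 and SOAT1 from -0.0170 to 0.0772, and with the block ABCA1 was -0.0737 without replicate 5 and -0.000895 without replicate 1, and SOAT1 -0.0116 without replicate 1. At 13 to 30 counts per parental library ABCA1 is limited by depth.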
